A study of Mus musculus with 24 samples.

Results

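Tumours of the mouse cortex that arose from cells expressing RAB3A were compared with tumours that arose from cells expressing BC74C, across all genes measured on the array. The members are the 6 tumours whose class gene label is RAB3A and the 9 whose label is BC74C, 15 of 24 in the series; the other 9 carry the class gene ZNF668 and entered the fit only to help estimate the spread of each gene. RNA of each tumour was read on 1 Affymetrix array. Of the RAB3A tumours 2 are labelled ependymoma (tumours 2 and 6), 0 HGG, 2 TUMOR with no type and 2 UNKNOWN, and of the BC74C tumours 6 are labelled ependymoma (tumours 1 to 6), 2 HGG, 0 TUMOR and 1 UNKNOWN. The labels do not spell out HGG. Titles begin with elw in 4 RAB3A and 8 BC74C tumours and with mmr in 2 RAB3A and 1 BC74C tumours, and what these prefixes stand for is not given in the sources used here, nor are the strain, age, vector or host of the tumours. Tumours are numbered in order of deposit within a class gene. The labels do not say that each tumour came from its own animal, so p-values measure only the spread between these samples, and the number of arrays limits their precision.

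Each of 13218 genes was represented by the probe set with the highest mean over the 24 arrays. Values are on the log2 scale, and every difference is RAB3A minus BC74C, so that 1 is a 2-fold higher mean in RAB3A tumours. In bulk tumour RNA, fewer cells of a type and less RNA per cell cannot be told apart. All comparisons of genes come from limma, with Benjamini-Hochberg adjustment over the 13218 genes.

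The product of RAB3A is a small GTPase on synaptic vesicles that binds effectors such as rabphilin and the RIM proteins and takes part in calcium-triggered release. The symbol BC74C is not among approved gene names, and only as a candidate for it is Bcl7c looked at below, whose product belongs to the BAF complexes that remodel chromatin. Ependymoma is a glial tumour whose cells resemble the ciliated lining of the ventricles and radial glia, the stem cells of the developing brain.

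Interferons act through STAT and IRF proteins that bind repeated GAAA letters before their target genes, and E2F proteins bind near the starts of genes for DNA replication. Promoters are shown for 4 genes of those sets whose values follow, as RefSeq gives them for assembly GRCm38.p6, each 300 bases long, reaching over the start of the gene by 50 bases, and written 5′ to 3′ in the direction of the gene. Capitals mark the letters GAAA, any 2 bases and GAAA on either strand in the first 3 and 1 of 4 E2F words on either strand in the last (TTTCCCGC, TTTCGCGC, TTTGGCGC, TTTGCCGC). The promoters are those of Gbp2 (chr3:142620413-142620712, plus strand), Gbp3 (chr3:142559794-142560093, plus strand; 1 of 2 listed starts), Cxcl10 (chr5:92348840-92349139, minus strand) and Gins3 (chr8:95633309-95633608, plus strand).
Gbp2: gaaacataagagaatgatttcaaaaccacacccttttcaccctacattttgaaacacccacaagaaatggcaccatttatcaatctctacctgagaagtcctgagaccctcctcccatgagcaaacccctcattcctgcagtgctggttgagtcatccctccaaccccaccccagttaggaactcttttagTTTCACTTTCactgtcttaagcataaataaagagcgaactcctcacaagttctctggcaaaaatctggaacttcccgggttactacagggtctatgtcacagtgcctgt
Gbp3: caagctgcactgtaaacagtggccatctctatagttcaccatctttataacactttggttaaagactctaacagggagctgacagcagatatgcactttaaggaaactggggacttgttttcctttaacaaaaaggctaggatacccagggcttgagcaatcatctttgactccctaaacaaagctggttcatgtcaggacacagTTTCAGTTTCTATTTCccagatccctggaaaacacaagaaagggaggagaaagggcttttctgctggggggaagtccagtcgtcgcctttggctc
Cxcl10: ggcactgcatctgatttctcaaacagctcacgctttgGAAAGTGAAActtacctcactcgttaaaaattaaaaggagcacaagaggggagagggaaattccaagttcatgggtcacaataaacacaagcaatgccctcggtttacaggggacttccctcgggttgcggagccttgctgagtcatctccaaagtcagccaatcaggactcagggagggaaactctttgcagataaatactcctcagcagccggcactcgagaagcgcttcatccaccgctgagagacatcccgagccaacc
Gins3: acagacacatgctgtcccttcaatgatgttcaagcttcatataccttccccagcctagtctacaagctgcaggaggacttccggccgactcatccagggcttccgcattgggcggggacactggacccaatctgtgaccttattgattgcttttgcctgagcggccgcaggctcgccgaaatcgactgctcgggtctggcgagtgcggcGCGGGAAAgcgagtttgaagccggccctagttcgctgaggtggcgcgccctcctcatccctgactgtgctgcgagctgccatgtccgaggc
In the Gbp3 promoter the capitals cover 2 overlapping matches. The pattern of GAAA, any 2 bases and GAAA stood in 1131 of 32851 RefSeq promoter windows (3.44%). Counted by gene, it stood in windows of 1079 of 27025 genes. By the same count it stood in windows of 12 of 18 interferon-induced genes with a promoter here. The counts were 1 of 2 for interferon chemokine genes and 3 of 11 for genes of MHC class I presentation. An E2F word stood in 744 windows (2.27% of all). Counted by gene, it stood in windows of 704 of 27025 genes, 10 of 17 replication genes and 1 of 17 mitosis genes. A match describes the letters of the window and is not a measured binding site.

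The transcripts of Rab3a and of Bcl7c, the candidate for BC74C, were compared first. Rab3a had a lowest, median and highest log2 value of 8.20, 9.47 and 10.37 in RAB3A tumours, against 6.93, 9.23 and 10.26 in BC74C tumours, so the groups overlapped over most of their range. The means differed by 0.54 (two-sided exact permutation test, p = 0.38). Bcl7c had 7.58, 8.28 and 8.92 in RAB3A tumours and 8.47, 9.10 and 9.79 in BC74C tumours. The means differed by -0.82 (p = 0.00959 by the same exact permutation test, 0.0192 adjusted over Rab3a and Bcl7c). Over all genes the same difference did not pass limma (adjusted p = 0.353). A dimmer probe set of Bcl7c differed by 0.26, the opposite sign (exact permutation p = 0.486). The probe sets may not see an introduced copy of either gene, which was not tested.

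No gene passed limma at an adjusted p under 0.05: the count was 0 (0.0%), and the smallest adjusted p was 0.0697. At an unadjusted p under 0.05 there were 1085 genes (8.21%), 290 higher in RAB3A tumours (2.19%) and 795 lower (6.01%). Of all genes 7406 of 13218 (56.0%) had a negative difference, and the median was -0.04. The share of the unadjusted calls that were lower was 73.3% with the values as deposited and 83.7% once each array was centred on its median. Between tumours labelled ependymoma alone, 2 RAB3A against 6 BC74C, it was 50.9%, with 276 genes higher and 286 lower. The plot of every gene shows the longer arm on the side of lower values in RAB3A tumours.

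**Figure D1:**
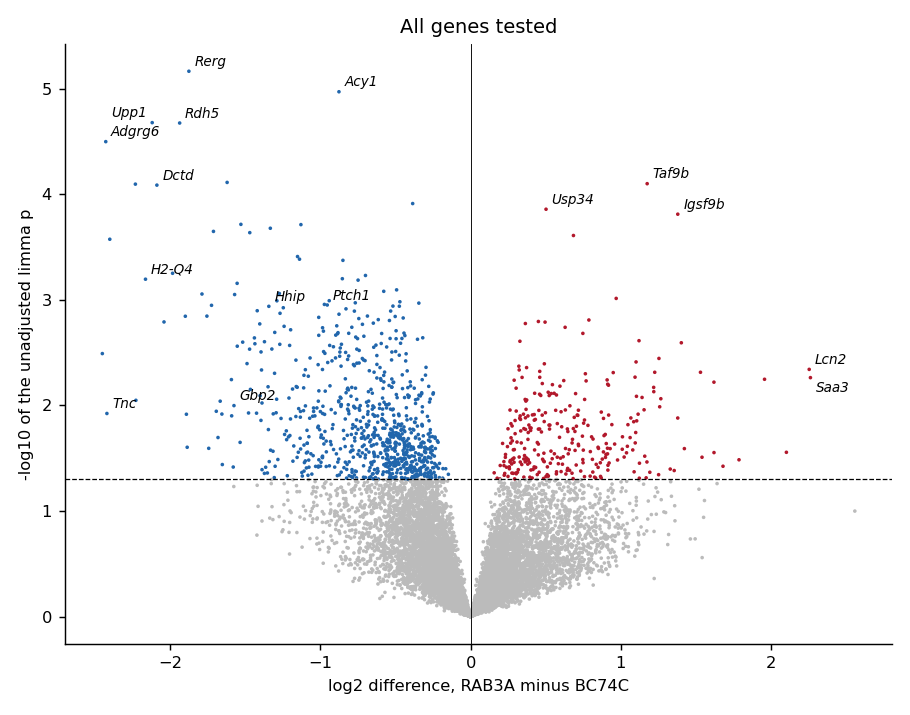
Each point is 1 of the 13218 genes, with the log2 difference, RAB3A minus BC74C, on the x axis and -log10 of the unadjusted limma p on the y axis; the dashed line marks the unadjusted threshold of 0.05, and red and blue points above it are the 290 higher and 795 lower genes. The genes with the smallest p, Rerg and Acy1, stand on the left, and Taf9b, Usp34 and Igsf9b lead on the right.

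The 5 genes nearest to the threshold were all lower in RAB3A tumours and encode enzymes, a GTPase and a receptor; none passed. Rerg, an oestrogen-regulated Ras-like GTPase, had 4.45, 5.56 and 6.33 (lowest, median, highest) in RAB3A tumours and 6.6, 7.29 and 8.19 in BC74C tumours, a difference of -1.88 (SE 0.33, limma adjusted p = 0.0697), and the groups did not overlap. Upp1, the uridine phosphorylase that splits uridine into uracil and ribose phosphate, had 5.29, 6.13 and 7.13 in RAB3A tumours and 7.13, 8.08 and 9.40 in BC74C tumours, a difference of -2.12 (SE 0.40, limma adjusted p = 0.0697); the highest RAB3A tumour and the lowest BC74C tumour all but met. Rdh5, a retinol dehydrogenase best known from the visual cycle of the retinal pigment epithelium, had 4.89, 5.65 and 6.64 in RAB3A tumours and 6.84, 7.42 and 8.86 in BC74C tumours (difference -1.94, SE 0.37, limma adjusted p = 0.0697). These 3 genes separated the groups completely, as the plot of single genes shows. Acy1, an aminoacylase that frees amino acids from their N-acetyl forms, had 6.18, 6.49 and 7.14 in RAB3A tumours and 6.73, 7.51 and 7.69 in BC74C tumours (difference -0.88, SE 0.16, limma adjusted p = 0.0697), with BC74C tumour 4 at 6.73 apart from the other 8, which began at 7.24. Adgrg6, an adhesion G protein-coupled receptor needed by Schwann cells to form myelin, had 3.69, 5.19 and 6.61 in RAB3A tumours and 6.46, 7.80 and 9.0 in BC74C tumours (difference -2.43, SE 0.47, limma adjusted p = 0.0838); its other probe set differed by -1.58.

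**Figure D2:**
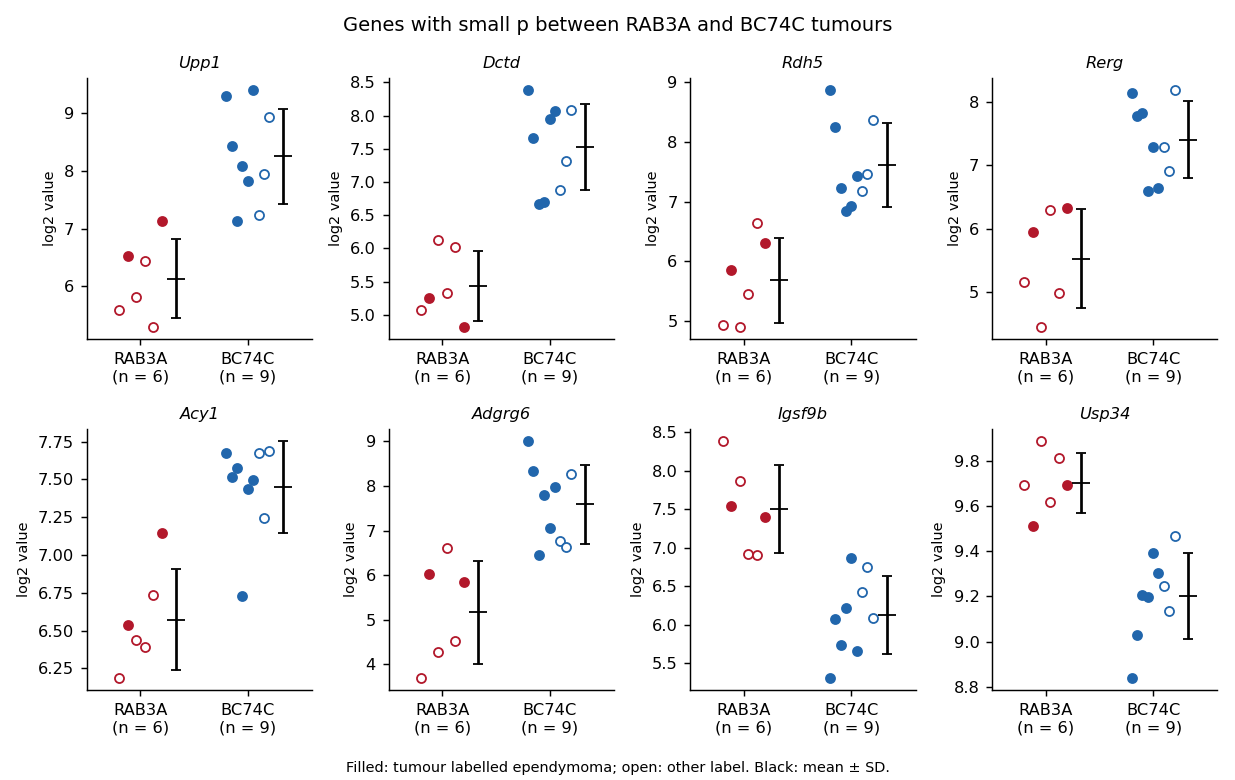
Log2 value of 8 genes in each RAB3A tumour (red, n = 6) and each BC74C tumour (blue, n = 9), with the mean and SD in black; filled points are tumours labelled ependymoma. Upp1, Dctd, Rdh5, Rerg, Igsf9b and Usp34 do not overlap between the groups, while Acy1 and Adgrg6 overlap by 1 or 2 tumours.

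Whether these genes pass turned on single tumours and on the model. Rerg and Acy1 passed at an adjusted p under 0.05 without BC74C tumour 4 (2 genes called), with the title prefix as a block, with each array centred, without the intensity trend, with the stricter filter on dim genes and with the mean over probe sets (2 called in each). Without RAB3A tumour 6 the called genes were Acy1, Rerg and Upp1 (3), without BC74C tumour 7 Frem1, Rerg, Taf9b and Upp1 (4), and without ZNF668 tumour 9 Acy1, Rdh5, Rerg and Upp1 (4). Over all 39 alternatives the limma adjusted p of Rerg ran between 0.00873 and 0.998 and its difference between -2.04 and -1.24. The high end came from the tumours labelled ependymoma alone.

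The next genes by p joined matrix and signalling proteins with a lipase and a mitochondrial ribosomal protein. Dctd, the deaminase that supplies dUMP for thymidylate synthesis, had 4.81, 5.29 and 6.12 in RAB3A tumours and 6.68, 7.66 and 8.38 in BC74C tumours (difference -2.09, SE 0.44, limma adjusted p = 0.12), with no overlap. Frem1, an extracellular matrix protein of basement membranes, had 4.05, 4.25 and 4.76 in RAB3A tumours and 4.47, 6.0 and 7.28 in BC74C tumours (difference -1.62). Liph, a phosphatidic acid lipase, differed by -2.23, with RAB3A values between 3.67 and 4.11 except tumour 4 at 5.08. Those low values lay close to the filter on dim genes at 3.76 and cannot be told from none. The other probe set of Liph, which was dimmer, differed by -0.46. Kitl, the ligand of the receptor Kit, had 7.99, 8.36 and 8.85 in RAB3A tumours and 8.72, 9.94 and 11.11 in BC74C tumours (difference -1.53, SE 0.35, limma adjusted p = 0.179), and its 3 other probe sets differed by -0.66 to -1.40. Sox13, a SoxD transcription factor, differed by -1.13, N4bp3, a partner of the ubiquitin ligase NEDD4, by -1.33, and Mrps18a, of the mitochondrial ribosome, by -0.39.

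Among genes higher in RAB3A tumours, Taf9b, Usp34 and Igsf9b had the smallest p. Taf9b, a TFIID-related cofactor linked to neuronal gene expression, had 8.63, 9.13 and 9.82 in RAB3A tumours and 7.22, 8.11 and 8.89 in BC74C tumours (difference 1.18, SE 0.25, limma adjusted p = 0.12), and all 6 of 6 RAB3A tumours lay above the BC74C median. Igsf9b, an adhesion protein of inhibitory synapses, had 6.91, 7.47 and 8.39 in RAB3A tumours and 5.30, 6.08 and 6.87 in BC74C tumours (difference 1.38, SE 0.31, limma adjusted p = 0.17), with no overlap. Usp34, a deubiquitinase that acts on axin, had 9.51, 9.69 and 9.89 in RAB3A tumours and 8.84, 9.21 and 9.47 in BC74C tumours (difference 0.50, SE 0.11, limma adjusted p = 0.166). The Usp34 groups were the narrowest of the 3 and did not overlap; a second probe set differed by 0.47 and another, dimmer one by -0.0037. The next genes by p included Rere, a nuclear receptor coregulator (0.45), Chfr, a mitotic checkpoint ubiquitin ligase (0.50), Ddx46, a splicing helicase (0.36), Dot1l, a histone methyltransferase of transcribed genes (0.63), and Usp7, the deubiquitinase that acts on Mdm2 (0.33). Also among them, Mtmr1, a phosphoinositide phosphatase, differed by 0.68, Ralgps2, an exchange factor for Ral, by 0.79, Ctsk, the protease cathepsin K, by 0.75, and Ranbp3l by 1.40. Of the 30 tested deubiquitinases of the USP family, 15 had a positive difference, with a median of 0.01, and Usp7, Usp24 and Usp34 (3 of 30) were higher at an unadjusted p under 0.05, where 2.19% of all genes were. Leaving out 1 tumour moved that median between -0.02 and 0.05.

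Values did not overlap between the groups for 3 genes higher in RAB3A tumours (0.0227% of those tested), Igsf9b, Usp34 and 2310015A10Rik, and for 12 lower (0.0908%). Besides Upp1, Dctd, Rdh5 and Rerg, the lower ones included H2-Q4, a non-classical MHC class I gene, which had 3.72, 4.22 and 4.98 in RAB3A tumours and 4.98, 6.16 and 8.78 in BC74C tumours (difference -2.16). The near-identical sequences of the H2-Q family make it uncertain which family member this probe set reads. Adgrv1, a very large adhesion receptor mutated in Usher syndrome, had 4.95, 5.37 and 5.76 in RAB3A tumours and 5.99, 6.41 and 8.06 in BC74C tumours (difference -1.24). Its other, dim probe set differed by -0.05. Trap1, the mitochondrial HSP90 chaperone, had 8.63, 9.02 and 9.06 in RAB3A tumours and 9.13, 9.51 and 10.10 in BC74C tumours (difference -0.65). Lhpp, a phosphatase of phosphohistidine, differed by -0.83, Mrps27, of the mitochondrial ribosome, by -0.49, Ubox5, a ubiquitin ligase, by -0.47 (0.01 in another probe set), Wdr18 by -0.44 and Dr1, a repressor that binds the TATA-binding protein, by -0.30.

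Large differences among other genes came with wide spread. Pmch, the precursor of melanin-concentrating hormone, had the largest positive difference of all (2.56), at an unadjusted limma p of 0.1, with 3.48, 7.07 and 9.80 in RAB3A tumours and 3.09, 3.63 and 7.63 in BC74C tumours. At an unadjusted p under 0.05 the largest was that of Saa3. Saa3, an acute-phase serum amyloid, had 5.04, 6.90 and 11.54 in RAB3A tumours and 4.58, 5.20 and 6.40 in BC74C tumours (difference 2.26, SE 0.74, limma adjusted p = 0.398). Tumours 2, 4 and 5 of the RAB3A group stood at 10.55, 8.09 and 11.54, and the other 3 lay between 5.04 and 5.70, inside the BC74C range. Il1r2, the decoy receptor of interleukin 1, was high in the same RAB3A tumours 2 and 5, at 9.13 and 10.36, against at most 5.74 in any other of the 15. Lcn2, an iron-siderophore binding protein of the acute phase, was less uneven, at 7.98, 9.03 and 10.41 in RAB3A tumours and 4.31, 7.25 and 9.66 in BC74C tumours (difference 2.25). Tnr, the matrix glycoprotein tenascin-R made by oligodendrocyte lineage cells, had 7.66, 8.72 and 10.55 in RAB3A tumours and 5.54, 7.62 and 8.42 in BC74C tumours (difference 1.53, SE 0.49, limma adjusted p = 0.38). Its relative Tnc, tenascin-C of radial glia and gliomas, ran the other way, at 3.56, 6.63 and 8.82 in RAB3A tumours and 6.09, 8.81 and 11.64 in BC74C tumours (difference -2.42, SE 0.89, limma adjusted p = 0.449); its other probe set differed by -1.42. Bmp4, a bone morphogenetic protein, had 4.98, 5.99 and 7.82 in RAB3A tumours and 3.90, 4.63 and 5.75 in BC74C tumours (difference 1.62). Further large positive differences at an unadjusted p under 0.05 were those of Col19a1 (2.10), Prg4 (1.79), Tac2 (1.68) and Sult1a1 (1.54). Among those with large negative ones were Car3, a cytosolic carbonic anhydrase (-2.45), Epb41l4a (-2.40), Apol9a (-2.23) and Tead2, a DNA-binding partner of YAP (-2.04).

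Interferon-induced genes were lower in RAB3A tumours throughout the list, though no member passed limma over all genes. Of 22 tested members 22 had a negative difference, with a median of -1.06 against -0.04 over all genes, and 11 of 22 were lower at an unadjusted p under 0.05, where 6.01% of all genes were. Gbp2, a guanylate-binding GTPase that acts against intracellular pathogens, had 6.23, 9.61 and 10.46 in RAB3A tumours and 9.22, 10.96 and 11.37 in BC74C tumours (difference -1.58, SE 0.56, limma adjusted p = 0.449). Its neighbour Gbp3 had 8.65, 9.72 and 10.98 in RAB3A tumours and 9.81, 11.15 and 11.68 in BC74C tumours (difference -1.29). For both genes the groups overlapped. Smaller differences were those of Stat2, a transducer of type I interferon (-0.53), and Ifit3 (-0.88). Stat2 read 4.48 in RAB3A tumour 3. In the other RAB3A tumours it read 6.17 to 7.40, inside the BC74C range of 5.78 to 7.53. The mean over the list was 7.76, 9.61, 6.84, 8.64, 8.06 and 8.92 in RAB3A tumours 1 to 6, so the highest 2 were the tumours labelled ependymoma. It was 9.76, 9.96, 8.54, 8.08, 9.19, 9.45, 9.17, 9.85 and 9.95 in BC74C tumours 1 to 9. Between tumours labelled ependymoma alone the median difference was 0.11, with 8 of 22 members negative, against 52.4% of all genes. With the tumour label as a covariate the median was -0.57, with 0 of 22 at an unadjusted p under 0.05. In that fit only 348 of 13218 genes were lower at an unadjusted p under 0.05. Class gene and tumour label are unevenly combined here, and the part of the label in this difference was not tested further.

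Chemokines induced by interferon were lower as well in each of 5 members, with a median of -0.94. Cxcl10, which draws T cells through CXCR3, had 5.32, 9.0 and 10.09 in RAB3A tumours and 8.04, 10.30 and 11.56 in BC74C tumours (difference -1.65, SE 0.74, limma adjusted p = 0.559). Cxcl11 differed by -1.34, Ccl5 by -0.61 and Cxcl16 by -0.37. Without RAB3A tumour 5 the median was -1.45. The same tumour was the only RAB3A tumour with high Cd2 and Zap70. Cd2, an adhesion receptor of T and NK cells, read 8.82 there and 3.37 to 3.70 in the other 5. Zap70, a kinase of the T cell receptor, read 6.07 against 3.28 to 3.90. Cd3d read 4.36 there against 3.17 to 3.94 in the other RAB3A tumours, and 5.46 in BC74C tumour 2. Cd4 read 4.58 against 4.31 to 4.54. Across the T cell and cytotoxic list 4 of 9 members were negative with a median of 0.0030 (-0.16 without RAB3A tumour 5), and the mean over the list ran between 3.94 and 5.37 in RAB3A tumours and between 4.09 and 4.72 in BC74C tumours.

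Genes of MHC class I presentation were lower in 12 of 12 members, with a median of -0.67 and 4 of 12 at an unadjusted p under 0.05, against 6.01% of all genes. H2-K1, a classical class I heavy chain, had 9.88, 11.52 and 12.53 in RAB3A tumours and 11.88, 12.45 and 12.80 in BC74C tumours (difference -0.88, SE 0.31, limma adjusted p = 0.439). H2-D1 had 10.68, 11.86 and 12.63 in RAB3A tumours and 12.18, 12.49 and 12.93 in BC74C tumours (difference -0.76). For H2-K1 4 of 6 RAB3A tumours and for H2-D1 5 of 6 lay below the lowest BC74C tumour, and the others inside the BC74C range. Probe sets of these near-identical heavy chains may read more than 1 of them, and 1 dim probe set of H2-D1 differed by 0.11. The transporter-associated tapasin gene Tapbp differed by -0.40 and H2-T23 by -0.58. For both, RAB3A tumour 3 lay below every other tumour, at 7.61 and 7.67. RAB3A tumours 4 and 5 read 10.04 and 10.19 for Tapbp, above every BC74C tumour. Without RAB3A tumour 3 the median of the list was -0.44, and between tumours labelled ependymoma it was -0.50.

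MHC class II genes lay close to the median of all genes. Of 6 members 4 were negative with a median of -0.13 and 0 at an unadjusted p under 0.05, and leaving out 1 tumour moved the median between -0.64 and 0.31. The mean over the list was far above the rest of its group in RAB3A tumour 5 (10.53) and in BC74C tumour 2 (10.75), and these were also the highest for the choroid plexus list (7.27 and 7.20). Cd74, the invariant chain, had 4.41, 7.38 and 11.12 in RAB3A tumours and 5.10, 6.41 and 10.87 in BC74C tumours (difference 0.21), and H2-Ab1 differed by -0.27. Without both tumours the class II median was -0.31, the interferon-induced median -0.86 and the class I median -0.73. In that fit 4 of 22 interferon-induced genes were at an unadjusted p under 0.05, where 542 of 13218 genes were lower.

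**Figure D3:**
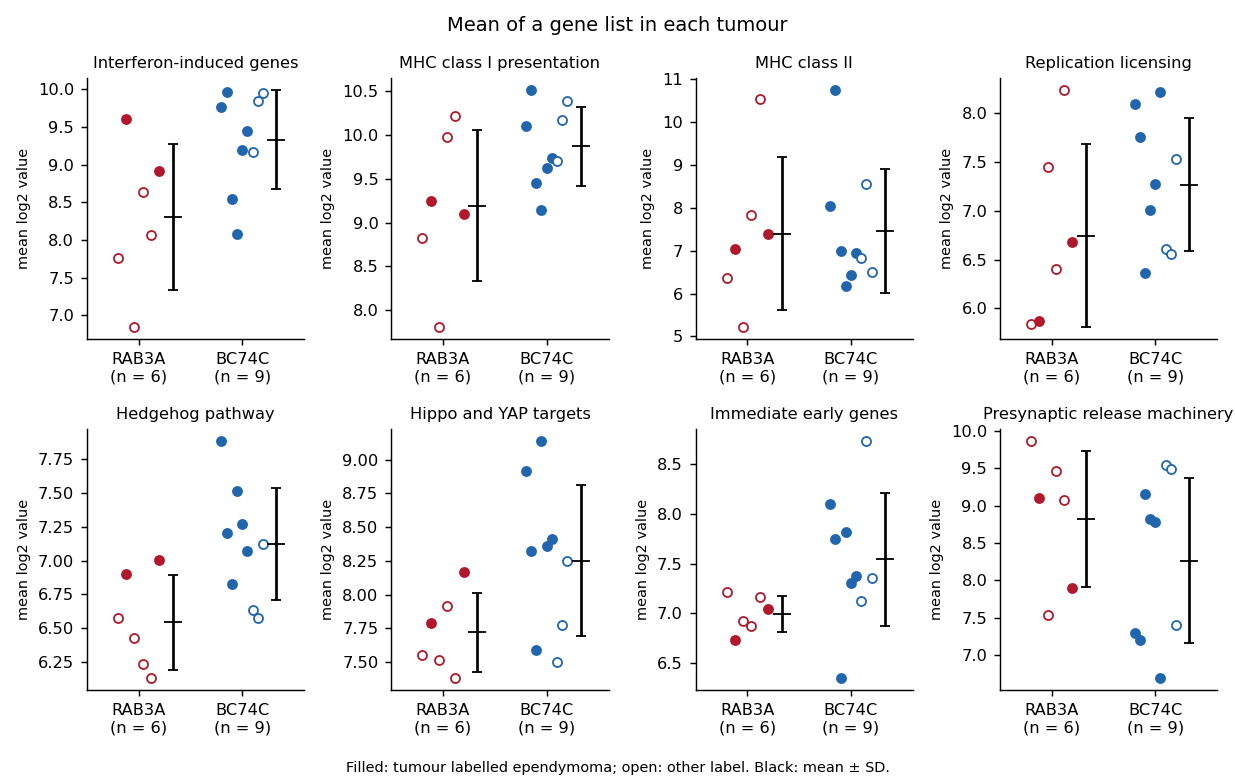
Mean log2 value of 8 gene lists in each RAB3A tumour (red, n = 6) and each BC74C tumour (blue, n = 9), with the mean and SD in black; filled points are tumours labelled ependymoma. The 2 filled RAB3A points are the highest of their group for interferon-induced genes, at 9.61 and 8.92, and every list overlaps between the groups.

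Cell cycle genes were lower in RAB3A tumours on the whole, with a spread within each group wider than the difference. Of 21 mitosis genes 21 were negative with a median of -0.88, and 0 were at an unadjusted p under 0.05. Cdk1, the kinase that drives entry into mitosis, had 4.69, 7.48 and 9.56 in RAB3A tumours and 6.07, 8.91 and 10.60 in BC74C tumours (difference -1.25, SE 0.86, limma adjusted p = 0.718). Cenpf, a kinetochore protein, differed by -1.21, Nusap1 by -0.60 and Mad2l1, a spindle checkpoint protein, by -0.30. The mean over the mitosis list was 4.69, 4.90, 8.14, 5.96, 8.65 and 6.39 in RAB3A tumours 1 to 6, so tumours 3 and 5 stood as high as the upper BC74C tumours, whose highest was 9.16 and lowest 5.09. Without RAB3A tumour 1 the median was -0.51, and between tumours labelled ependymoma it was -2.15.

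For replication licensing, the loading and firing of the MCM helicase, 21 of 22 members were negative with a median of -0.50. Gins3, a subunit of the GINS complex, had 3.95, 4.94 and 5.34 in RAB3A tumours and 4.75, 5.66 and 6.11 in BC74C tumours (difference -0.77, SE 0.28, limma adjusted p = 0.449). It was the 1 of 22 members at an unadjusted p under 0.05, where 6.01% of all genes were lower. Rfc3, of the clamp loader, differed by -0.65, while the origin proteins Orc6 and Orc1 differed by -0.01 and 0.10. Without RAB3A tumour 1 or 2 the median was -0.31 or -0.32, and without tumour 5 it was -0.82.

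Among regulators of G1, the D-type cyclins Ccnd1 and Ccnd2 differed by -0.90 and -0.86, and Cdkn1c, the CDK inhibitor p57, by 1.04. Cdkn1c had 5.10, 6.70 and 7.02 in RAB3A tumours and 3.42, 5.58 and 6.39 in BC74C tumours (SE 0.43, limma adjusted p = 0.514). The list as a whole had 10 of 16 negative and a median of -0.23. Enzymes of nucleotide synthesis and salvage, to which Upp1 belongs, had 18 of 21 negative with a median of -0.21 (-0.14 without RAB3A tumour 4). Upp1 was the only 1 of the 21 at an unadjusted p under 0.05, where 6.01% of all genes were lower. Tk1, thymidine kinase of S phase, differed by -1.27, and the related phosphorylase Upp2 by 0.18. In the p53 list 9 of 15 were negative with a median of -0.14 (-0.05 without RAB3A tumour 3 and -0.23 without BC74C tumour 5), and Phlda3, a p53-induced Akt inhibitor, differed by -0.57.

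Hedgehog signalling works through the receptor Ptch1, which holds back Smo until a ligand binds, and raises Ptch1, Hhip and Gli1 as target genes. In RAB3A tumours 9 of 10 members of the list were lower, with a median of -0.71 and 4 of 10 at an unadjusted p under 0.05, against 6.01% of all genes. Those 4 were the 3 target genes and Smo. Ptch1 had 9.82, 10.16 and 10.61 in RAB3A tumours and 10.30, 10.90 and 12.08 in BC74C tumours (difference -0.95, SE 0.26, limma adjusted p = 0.325); its dim second probe set differed by -0.19. Hhip, which binds and retains the ligand, had 3.93, 4.63 and 5.96 in RAB3A tumours and 5.35, 6.38 and 7.41 in BC74C tumours (difference -1.34, SE 0.36, limma adjusted p = 0.325), and its 3 other probe sets differed by -0.39 to -0.56. Gli1, the transcription factor induced by the pathway, had 3.19, 3.45 and 4.54 in RAB3A tumours and 3.48, 4.79 and 7.12 in BC74C tumours (difference -1.16). Its RAB3A median lay below the filter on dim genes at 3.76, which applies to the mean over all 24 arrays. Gli1 was therefore tested only through its higher tumours, and its low levels cannot be told from none. Smo had 7.48, 8.42 and 9.58 in RAB3A tumours and 8.25, 9.59 and 9.82 in BC74C tumours (difference -0.80). The co-receptors Cdon and Gas1 differed by -0.03 and 0.14. The lowest 4 RAB3A tumours by the mean over the list were those not labelled ependymoma, at 6.13 to 6.57, and between ependymoma-labelled tumours the median was -0.24.

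In the Wnt list 10 of 14 were negative with a median of -0.47, 6 lower and 1 higher at an unadjusted p under 0.05, where 6.01% of all genes were lower and 2.19% higher. Wnt7b, a ligand that shapes brain vessels, had 6.06, 7.46 and 8.05 in RAB3A tumours and 7.56, 8.5 and 9.30 in BC74C tumours (difference -1.16, SE 0.36, limma adjusted p = 0.353), and its dimmer probe set differed by -0.70. Sfrp1, a secreted antagonist, had 4.46, 4.82 and 5.96 in RAB3A tumours and 5.10, 5.96 and 7.23 in BC74C tumours (difference -0.99). Nkd2, an intracellular inhibitor, was the 1 higher, at 4.19, 5.53 and 5.93 in RAB3A tumours and 3.72, 4.16 and 6.05 in BC74C tumours (difference 0.95). In the Notch list 9 of 14 were negative with a median of -0.21; Jag1, a Notch ligand, had 4.03, 4.71 and 5.51 in RAB3A tumours and 5.12, 6.03 and 7.42 in BC74C tumours (difference -1.27, SE 0.35, limma adjusted p = 0.325), and the target Hes5 differed by 0.28. The Notch median was -0.02 without RAB3A tumour 5 and -0.43 without RAB3A tumour 6, the ends of its range when 1 tumour was left out.

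Growth factor receptors and the feedback genes of the MAPK pathway had 17 of 20 negative and a median of -0.43 (-0.18 without RAB3A tumour 5). Lower at an unadjusted p under 0.05 were Egfr, Erbb2, Fgfr2 and the Ets factor Etv1, and higher was Pdgfrb, so 4 of 20 were lower against 6.01% of all genes, and 1 of 20 higher against 2.19%. Egfr had 7.01, 9.18 and 10.40 in RAB3A tumours and 9.45, 10.68 and 11.08 in BC74C tumours (difference -1.32, SE 0.56, limma adjusted p = 0.524). Erbb2 had 4.01, 4.37 and 6.14 in RAB3A tumours and 4.69, 5.92 and 6.99 in BC74C tumours (difference -1.16). Both receptors overlapped between the groups. In the Hippo list, whose kinases hold YAP out of the nucleus, 10 of 12 were negative with a median of -0.48 and 4 of 12 at an unadjusted p under 0.05 (6.01% of all genes), which were Tead2, Ajuba, Yap1 and Lats2. Tead2 had 4.46, 5.28 and 7.63 in RAB3A tumours and 5.42, 8.01 and 9.04 in BC74C tumours (SE 0.57, limma adjusted p = 0.325). Yap1 had 7.89, 8.39 and 9.41 in RAB3A tumours and 8.66, 9.64 and 9.96 in BC74C tumours (difference -0.84).

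Immediate early genes, which follow growth factor or synaptic stimulation and also handling of tissue, were negative in 15 of 15 members with a median of -0.54. Egr2, a zinc finger factor, had 5.46, 6.32 and 6.98 in RAB3A tumours and 6.20, 7.96 and 8.71 in BC74C tumours (difference -1.39, SE 0.49, limma adjusted p = 0.444), and Jun, a subunit of AP-1, differed by -0.94. Fosb and Dusp1 differed by -0.13 and -0.12. The mean over the list ran between 6.74 and 7.21 in RAB3A tumours and between 6.35 and 8.73 in BC74C tumours, a much wider range. How the tumours were handled before extraction is not given in the sources used here, and its part in the result was not tested.

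**Figure D4:**
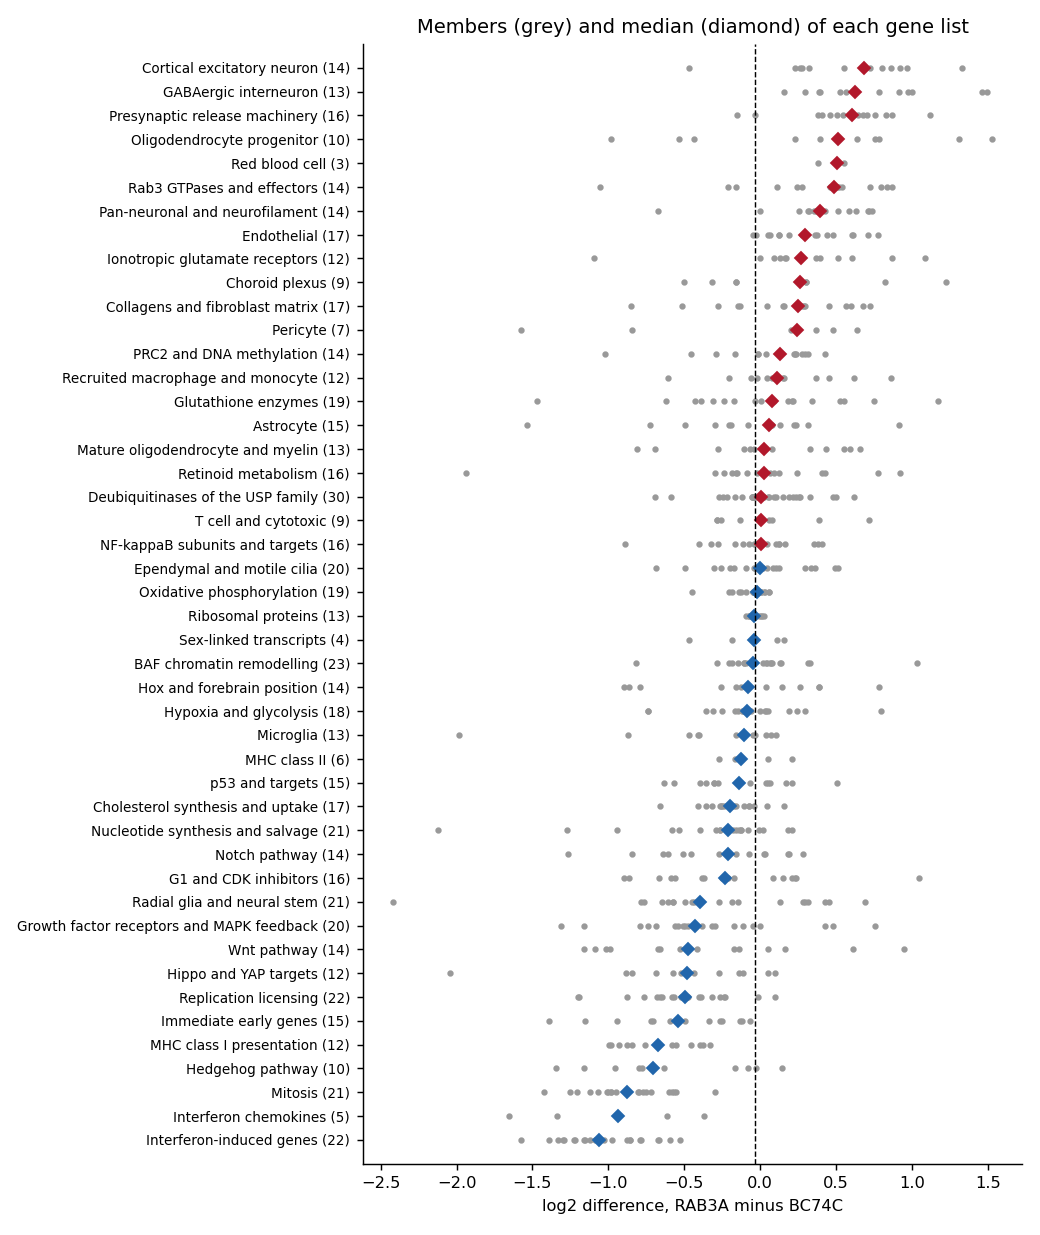
Log2 difference, RAB3A minus BC74C, of each member (grey) and the median (diamond, red above and blue below 0) of the 46 gene lists, with the number of members tested in brackets; the dashed line is the median of all genes, -0.04. Interferon-induced genes lie lowest with a median of -1.06, and markers of cortical excitatory neurons highest with 0.68.

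Markers of neurons were higher in RAB3A tumours in most members, and none passed at an unadjusted p under 0.05 in the cortical excitatory, GABAergic, pan-neuronal and presynaptic lists. Cortical excitatory markers were positive in 13 of 14 with a median of 0.68, GABAergic markers in 13 of 13 with 0.62, pan-neuronal markers in 12 of 14 with 0.40 and genes of presynaptic release in 14 of 16 with 0.61. Cux2, a factor of upper cortical layers, had 6.42, 8.35 and 9.80 in RAB3A tumours and 4.69, 7.24 and 8.51 in BC74C tumours (difference 1.33, SE 0.65, limma adjusted p = 0.605), while Rorb, of layer 4, differed by -0.47. Lhx6, of interneurons from the medial ganglionic eminence, differed by 1.0 and Reln by 0.91. Pclo, a scaffold of the active zone, had 7.92, 9.76 and 10.76 in RAB3A tumours and 6.28, 8.45 and 10.42 in BC74C tumours (difference 1.12), and Syt1, the calcium sensor of release, differed by 0.74. The dendritic gene Map2 differed by -0.67. The mean over the cortical excitatory list was 8.77, 7.87, 5.83, 8.05, 7.79 and 5.77 in RAB3A tumours 1 to 6, so tumours 3 and 6 lay at the low end of the BC74C range of 5.19 to 8.23. Without RAB3A tumour 1 the median of that list was 0.27, without tumour 3 it was 1.11 and without tumour 6 it was 1.18. The GABAergic median was 0.40 without BC74C tumour 1, 0.34 without BC74C tumour 6 and 1.15 without RAB3A tumour 3. The pan-neuronal median was 0.26 and 0.74 without RAB3A tumours 1 and 3, and 0.23 and 0.68 without BC74C tumours 1 and 3. The presynaptic median was 0.38 without RAB3A tumour 1 and 0.39 without BC74C tumour 6.

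Rab3 GTPases and their effectors, most of them genes of neurons, had 11 of 14 positive and a median of 0.48 (0.28 without RAB3A tumour 4 and 0.31 without BC74C tumour 6). The 3 negative members were Rab3b, Rph3al (-0.21) and Rab3il1 (-0.16). Rab3b, a relative of Rab3a found in secretory cells, had 5.66, 6.80 and 7.56 in RAB3A tumours and 5.97, 7.39 and 9.76 in BC74C tumours (difference -1.06). Rab27b, which shares effectors with Rab3a, differed by 0.84. Of 12 ionotropic glutamate receptor genes 10 were positive with a median of 0.27. The kainate receptor genes Grik1 and Grik4 differed by 1.09 and 0.61, and Gria1, an AMPA receptor subunit, by -1.09, at 7.73, 10.02 and 10.55 in RAB3A tumours and 10.01, 10.75 and 11.38 in BC74C tumours. Without BC74C tumour 1 the median of this list was 0.18, and without BC74C tumour 6 or RAB3A tumour 1 it was 0.16.

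Radial glia and stem cell genes were negative in 14 of 21 with a median of -0.39. At an unadjusted p under 0.05 only Tnc and Vim (2 of 21) were lower, against 6.01% of all genes. Vim, the intermediate filament vimentin, had 10.96, 12.38 and 12.69 in RAB3A tumours and 11.76, 12.99 and 13.42 in BC74C tumours (difference -0.79). Hopx, of outer radial glia, differed by 0.43. The median was -0.26 without RAB3A tumour 4, -0.17 without RAB3A tumour 5 and 0.06 between ependymoma-labelled tumours. Oligodendrocyte progenitor genes had 7 of 10 positive and a median of 0.51. Tnr and the receptor Pdgfra differed by 1.53 and 0.75, and the 3 negative members were the lineage factors Olig1 (-0.98) and Olig2 (-0.53) and the receptor phosphatase Ptprz1 (-0.43). Olig1 read 8.44 in RAB3A tumour 3 and 10.55 to 12.90 in the other RAB3A tumours, against 11.17 to 13.265 in BC74C tumours. The progenitor median was 0.23 without RAB3A tumour 3 and 0.30 without RAB3A tumour 6. Myelin genes had 7 of 13 positive and a median of 0.03, with Trf, the transferrin of oligodendrocytes, at -0.81 and Mbp, myelin basic protein, at 0.55. Without BC74C tumour 1 the myelin median was -0.27 and without BC74C tumour 3 it was 0.37. Astrocyte genes had 8 of 15 positive and a median of 0.06; Aldh1l1, the folate enzyme used as an astrocyte marker, differed by -1.53 and the gap junction gene Gjb6 by 0.92. The astrocyte median ran between -0.23 (without RAB3A tumour 6) and 0.10 (without BC74C tumour 2).

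Genes of motile cilia, which mark ependymal cells, did not separate the groups: 10 of 20 were negative, the median was -0.0017 (between -0.09 and 0.10 with 1 tumour left out), and the mean over the list ran between 4.50 and 5.79 in RAB3A tumours and between 4.76 and 5.94 in BC74C tumours. Foxj1, the master factor of motile cilia, had 4.16, 6.25 and 7.25 in RAB3A tumours and 5.68, 6.35 and 8.12 in BC74C tumours (difference -0.69). Hydin, of the central pair of the cilium, lay between 4.19 and 4.56 in RAB3A tumours and between 3.86 and 4.83 in BC74C tumours, close to the filter on dim genes at 3.76, and 7 measured members, Spag17 among them, fell below that filter. Signal over background is not in the values, so these low levels cannot be told from none. Choroid plexus genes had 5 of 9 positive and a median of 0.27, with Ttr, transthyretin, at 4.73, 7.39 and 12.89 in RAB3A tumours and 3.20, 7.04 and 13.13 in BC74C tumours. Its highest values, 12.89 and 13.13, were those of RAB3A tumour 5 and BC74C tumour 2. The list median was -0.22 without RAB3A tumour 5, 0.10 without RAB3A tumour 2 and 0.43 without BC74C tumour 2, and -0.80 between ependymoma-labelled tumours.

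Microglia genes had 10 of 13 negative and a median of -0.11, which was -0.42 without RAB3A tumour 4, -0.24 without BC74C tumour 3, 0.01 without RAB3A tumour 2 and 0.0013 without BC74C tumour 2. Olfml3, a secreted protein of microglia that other brain cells can also make, had 4.50, 6.62 and 7.99 in RAB3A tumours and 7.21, 8.34 and 10.19 in BC74C tumours (difference -1.98, SE 0.50, limma adjusted p = 0.318), and Sall1, a factor of microglia and of neural stem cells, differed by -0.87. The receptors P2ry12 and Csf1r differed by 0.07 and 0.11, and were among the 3 positive members. Recruited macrophage genes had 8 of 12 positive and a median of 0.11, with Itga4, an integrin of blood-derived cells, at 0.86. Itga4 read 9.05 in RAB3A tumour 5, its difference was 0.35 without that tumour, and its 4 other, dimmer probe sets differed by 0.01 to 0.05. The macrophage median was -0.04 without RAB3A tumour 5, -0.07 without BC74C tumour 3 and -0.0077 without RAB3A tumour 4, and 0.27 without BC74C tumour 2. Endothelial genes had 15 of 17 positive and a median of 0.30, and Cldn5, a claudin of the blood-brain barrier, had 7.97, 8.93 and 9.16 in RAB3A tumours and 7.10, 8.10 and 8.37 in BC74C tumours (difference 0.71). Pericyte genes had 5 of 7 positive and a median of 0.24, from Pdgfrb at 0.48 to Acta2, smooth muscle actin, at -1.58. Collagens and matrix genes had 12 of 17 positive and a median of 0.25, with Col4a1 at 0.60, and red blood cell genes 3 of 3 with 0.51. The pericyte median was 0.02 without RAB3A tumour 3 and 0.43 without BC74C tumour 6, the collagen median -0.01 without RAB3A tumour 5 and 0.39 without RAB3A tumour 2, and the red blood cell median 0.13 without RAB3A tumour 1 and 0.93 without RAB3A tumour 3. Between ependymoma-labelled tumours the pericyte median was -0.21 and the collagen median -0.28.

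Most metabolic and chromatin lists had medians within 0.2 of 0. Ribosomal protein genes had 10 of 13 negative with a median of -0.04, oxidative phosphorylation 13 of 19 with -0.02, and hypoxia and glycolysis 11 of 18 with -0.09. Cholesterol synthesis had 15 of 17 negative, against 56.0% of all genes, with a median of -0.20 that was -0.07 without RAB3A tumour 4 and -0.31 without RAB3A tumour 5. Sdhc, a subunit of succinate dehydrogenase, differed by -0.45 (SE 0.12, limma adjusted p = 0.325), and Dhcr7, the last enzyme of cholesterol synthesis, by -0.66. Retinoid genes had 8 of 16 negative and a median of 0.02; beside Rdh5 at -1.94, Cyp26b1, which degrades retinoic acid, differed by 0.92. Glutathione enzymes had 8 of 19 negative and a median of 0.08, with Gstt1, a glutathione transferase, at 7.75, 9.06 and 10.70 in RAB3A tumours and 9.69, 10.20 and 11.98 in BC74C tumours (difference -1.47) and the peroxidase Gpx7 at 1.17. BAF subunits had 12 of 23 negative and a median of -0.05. Bcl7c was the only 1 of the 23 at an unadjusted p under 0.05, where 6.01% of all genes were lower. Bcl7a, a paralogue of Bcl7c, differed by 0.32. PRC2 and DNA methylation genes had 6 of 14 negative and a median of 0.13 (-0.06 without RAB3A tumour 5), NF-kappaB genes 8 of 16 and 0.0027 (-0.25 without RAB3A tumour 5), and Hox and forebrain position genes 8 of 14 and -0.08, with the forebrain factor Otx1 at -0.86. With 1 tumour left out, the medians of the ribosomal, oxidative phosphorylation, hypoxia, retinoid, glutathione, BAF and position lists took either sign, the widest range being that of glutathione enzymes (-0.05 without RAB3A tumour 2 and 0.15 without BC74C tumour 3).

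Sex-linked transcripts were read as a check on the samples. Xist, expressed from the inactive X of female cells, lay between 9.63 and 11.99 in RAB3A tumours and between 9.76 and 12.21 in BC74C tumours. Eif2s3y, on the Y chromosome, lay between 3.11 and 9.04 in RAB3A tumours and between 4.45 and 8.64 in BC74C tumours, so most tumours held both transcripts, and RAB3A tumour 5 had the lowest Eif2s3y. With the mean of the Y-linked transcripts as a covariate limma called 1 gene, Upp1, and the interferon-induced median was -1.01 and the mitosis median -0.85.

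**Figure D5:**
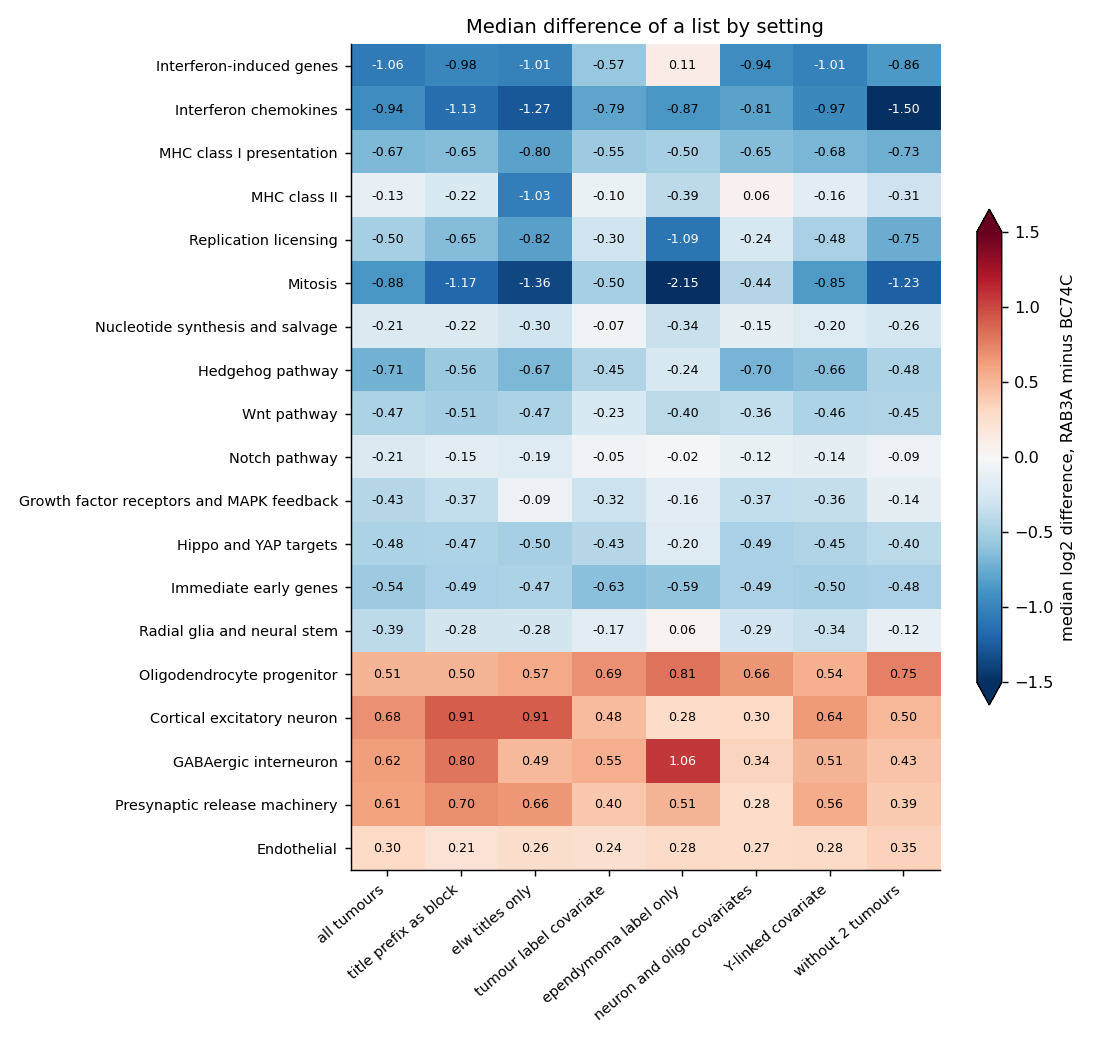
Median log2 difference, RAB3A minus BC74C, of 19 gene lists (down the page) under 8 settings (across), with colour and number giving the median. Interferon-induced genes have -1.06 over all tumours and 0.11 among those labelled ependymoma, while mitosis genes have -0.88 and -2.15.

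The plot of lists by setting shows which medians moved with the tumours and covariates used. MHC class I genes stayed between -0.80 and -0.50 over the 8 settings shown and immediate early genes between -0.63 and -0.47. With the means of the pan-neuronal and mature oligodendrocyte lists as covariates the mitosis median was -0.44 and the cortical excitatory median 0.30, against -0.88 and 0.68 without them. Within titles beginning with elw, 4 RAB3A against 8 BC74C tumours, the interferon-induced median was -1.01 and the Hedgehog median -0.67; the mmr titles hold only 1 BC74C tumour, so no value is given within them.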

How the data were processed

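Per the labels' protocols, Trizol was used to extract RNA from the 24 tumours, and biotin-labelled cRNA was read on single-colour Affymetrix arrays. The authors deposited 45141 probe sets as log2 values between 2.40 and 13.85; the scale was read from the values, whose array medians lay between 4.98 and 5.19. Partek 6.6 was used, per the submitters' processing notes; background correction, normalization and summarisation are not given in the sources used here. If arrays were equalised, a shift of most genes at once would not be seen.

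Control probe sets (104) and those with several symbols (551) or none (15588) were left out, leaving 28898, of which 28689 matched RefSeq (GRCm38.p6) by Entrez identifier. Each of 17097 genes took its probe set with the highest mean, and 13218 above the 30th percentile of probe set means (3.76) were tested. RAB3A minus BC74C was fitted with limma 3.58.1 in R 4.3.3 (lmFit, eBayes with trend, two-sided, Benjamini-Hochberg, threshold 0.05) on all 24 tumours with the class gene as the only term, so the ZNF668 tumours add to the estimate of spread. The median SE was 0.228. Rab3a and Bcl7c transcripts were compared by exact permutation (scipy 1.17.1). No 2 arrays were identical.

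The comparison, the 46 gene lists (780 genes, 701 measured, 658 tested) and the tests were chosen with earlier results of these data known, so lists are described by counts and medians and carry no test. Named genes are the 12 of smallest p higher and the 12 lower, and the 10 largest differences each way at an unadjusted p under 0.05. Also named are up to 10 genes each way whose groups do not overlap, and the top 2 and bottom 2 members of each list by moderated t. Rab3a, Bcl7c and the sex-linked transcripts complete them, and clone names were passed over. Names beyond that rule (Pmch, Olig2, Rab3il1, Gli1, Smo, Egfr, Etv1, Yap1, Ajuba, Usp24, Hydin, Spag17, 2310015A10Rik) were chosen after their values were seen. Figures were drawn with matplotlib 3.10.9.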

Additional observations from a re-analysis of the deposited data

Results flagged for a closer look

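Within each group, single values were checked for 1 tumour standing apart from the rest by Dixon's rule, over 530 combinations of a group with a named gene or list mean; 40 stood out, and chance alone flags about 1 in 20 groups. Each value below is a log2 value, with the range of the other tumours of the same group after it where the gap is described in full.

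RAB3A tumour 5 stood out most often. It was high for Cd2 (8.82), Zap70 (6.07), the T cell and cytotoxic list mean (5.37, the others 3.94 to 4.30), the choroid plexus list mean (7.27, the others 4.14 to 5.15), Bcl3, an NF-kappaB cofactor (8.37), Col8a1 (6.97) and Mtf2 (10.38). It was low for Nf2 (8.28), Eif2s3y (3.11), Kdm5d (2.89) and the sex-linked list mean (5.26, the others 7.69 to 8.47).

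BC74C tumour 2 was high for the choroid plexus list mean (7.20, the others 3.78 to 5.24), H2-Ab1 (12.41, the others 6.54 to 9.19), F10 (6.79) and Cldn2 (6.31). BC74C tumour 4 was low for Acy1 (6.73) and Ifit3 (8.47, the others 10.30 to 11.64) and high for Dr1 (8.96), Nkd2 (6.05) and Amotl2 (8.98). BC74C tumour 3 was high for Upp2 (5.45), Rph3al (6.17), Cox5a (12.67) and Cyp26b1 (5.42), BC74C tumour 1 low for Aldoc (11.61) and high for Dusp1 (11.49), and BC74C tumour 6 high for Col4a2 (9.16) and the hypoxia and glycolysis list mean (10.09).

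RAB3A tumour 2 was high for Cldn2, a claudin of the choroid plexus (11.57, the others 3.65 to 5.43), Sod2 (10.48) and the p53 list mean (8.14), and low for Chfr (8.32) and Vtn (8.24). A dimmer probe set of Cldn2 differed by -0.08 between the groups, against 0.82 for this probe set. In RAB3A tumour 2 Ttr read 4.73, the lowest of its group, and the choroid plexus list mean was 4.65. RAB3A tumour 3 was high for Ccnd2 (12.03) and low for Nefm (7.53), Perp (3.46), Lats2 (6.15) and Usp25 (5.61). RAB3A tumour 4 was high for Liph (5.08) and RAB3A tumour 6 for Rb1 (9.91).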

How the results depend on the processing

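No paired analysis was possible because the labels carry no replicate numbers that the groups share; tumours were numbered in order of deposit. Each result was recomputed under 39 alternatives, 24 of which left out 1 tumour; leaving out RAB3A tumour 5 and BC74C tumour 2 together was chosen after seeing the data. Against a count of 0 genes at a limma adjusted p under 0.05 (1085 unadjusted), the count was 1 with the Y-linked covariate (Upp1), 1 with no filter on dim genes (Sox1), 2 (Acy1 and Rerg) with arrays centred, without the trend, with the filter at the 50th percentile, with the mean over probe sets and with title prefixes as a block, 5 with the neuron and oligodendrocyte covariates (Acy1, Liph, Rdh5, Rerg, Upp1), and between 0 and 4 leaving out 1 tumour. At an unadjusted p under 0.05 the count of higher genes was 439 with the neuron and oligodendrocyte covariates and 183 with the tumour label as a covariate, and that of lower genes 348 with the label and 286 among tumours labelled ependymoma. In these last tumours, 2 RAB3A against 6 BC74C, the list medians were 0.11 for interferon-induced genes, 0.058 for radial glia, 0.12 for oxidative phosphorylation, -0.24 for the Hedgehog pathway and 0.34 for glutathione enzymes. Of these lists the interferon-induced, radial glia and oxidative phosphorylation ones turned sign, and the Hedgehog and glutathione ones did not. Among tumours labelled ependymoma the sign was also turned for the pericyte (-0.21), collagen (-0.28), choroid plexus (-0.80), recruited macrophage (-0.03), T cell (-0.14), NF-kappaB (-0.26), PRC2 (-0.05), retinoid (-0.08) and sex-linked (0.10) lists. The other probe set of Bcl7c differed by 0.26 (exact permutation p = 0.486). Of 201 other probe sets of the named genes, 30 differed in the opposite direction. The cause of these changes was not tested. Signal over background is not in the values, so how far dim genes are measured could not be assessed.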
